A study of Mus musculus with 14 samples.

Results

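The 10 genes described here encode the receptors through which B cells receive CD40, BAFF, APRIL, TNF and Fas ligand signals, and the TRAF proteins that act inside the cell behind them: Cd40, Fas, Tnfrsf13b, Tnfrsf13c, Tnfrsf17, Tnfrsf1b, Traf1, Traf2, Traf3 and Traf6. They were picked by gene symbol from the 22232 genes of the authors' table, and each symbol matched 1 row. The rule used no measured value, but the list was drawn up with earlier results of these data known. RNA levels were compared among 3 mouse genotypes. In PU.1 KI mice (5 libraries) both copies of the gene of the transcription factor PU.1 carry, by knock-in, a change that removes its miR-155 site. In miR-155 KO mice (5 libraries) both copies of the microRNA miR-155 are deleted. WT mice (4 libraries) carry neither change. All 14 libraries are polyadenylated RNA of splenic B cells enriched by negative selection and stimulated ex vivo for 96 h (LPS 5 µg/ml, IL-4 10 ng/ml). No age or sex of the animals is given in the labels, and both mutations are in the germline, so the cultured cells also developed without the site or without the microRNA.

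CD40 is the receptor for CD40 ligand of helper T cells and drives B cell proliferation, class switching and germinal centre formation. BAFF-R (Tnfrsf13c) carries the survival signal of mature B cells, TACI (Tnfrsf13b) binds BAFF and APRIL and is raised on activated B cells, and BCMA (Tnfrsf17) is typical of plasma cells. None of these receptors has enzyme activity. They recruit TRAF proteins, which are ubiquitin ligases or scaffolds and connect the receptor to the NF-κB and MAP kinase pathways. TRAF2 and TRAF3 together hold the kinase NIK at a low level and so restrain the alternative NF-κB pathway until a receptor recruits them, TRAF6 activates the classical NF-κB pathway behind CD40 and the Toll-like receptors, and TRAF1 is itself a gene induced by NF-κB.

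The sequence of miR-155 is shown because its deletion, or the loss of 1 of its sites, defines the mutants. Capitals mark the seed, bases 2 to 8. The mature strand lies on the plus strand at chr16:84714143-84714165 (RefSeq, GRCm38.p6).

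mmu-miR-155-5p: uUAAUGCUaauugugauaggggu

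The 3′ UTRs of the members (GENCODE M21, GRCm38, the longest UTR of each gene) were searched for the letters that pair with this seed, AGCATTA. A shorter match followed by an A, GCATTAA, and the string that contains both forms, AGCATTAA, were searched too. A match was found in 3 of 10 members, each with 1 match, and in 13.63% of the 9393 tested genes that have an annotated 3′ UTR. Tnfrsf13b and Traf3 hold AGCATTA, present in 9.156% of those genes, and Traf6 holds GCATTAA, present in 8.464%. The 3′ UTRs of Traf3 and Traf6 are long, at 5093 and 4170 nt against a median of 1141 nt over those genes, while that of Tnfrsf13b has 1730 nt. Each match is shown with its neighbouring bases, on the gene's own strand, with the match in capitals.

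Tnfrsf13b chr11:61147879-61147903 plus: ccggcacctAGCATTAcccttacaa
Traf3 chr12:111266954-111266978 plus: tctcctgatAGCATTAtgatgtttc
Traf6 chr2:101700255-101700279 plus: gagaaaagtGCATTAAagtacaaaa

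The match begins at base 246 of the 3′ UTR in Tnfrsf13b, at base 4903 in Traf3 and at base 2765 in Traf6. Cd40, Fas, Tnfrsf13c, Tnfrsf17, Tnfrsf1b, Traf1 and Traf2 hold no match in the UTR searched. A match is a string of letters and not a measured site.

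The promoters of 9 members were in the RefSeq table (GRCm38.p6, 250 bases before to 50 after the start), and that of Cd40 was not used here. They were searched on both strands for the κB consensus, the site of NF-κB, and for GAGGAA, a form of the ETS site recognised by PU.1. The κB consensus was in 4.51% of 32851 promoters and GAGGAA in 28.3%. Traf3 was the only member of the 9 with a κB match, and it also holds GAGGAA. The string GAGGAA was present in Tnfrsf17, Tnfrsf1b, Traf2 and Traf3, with 1 match each, and in Traf6 with 2, while Traf1, Fas, Tnfrsf13b and Tnfrsf13c hold neither. The promoter of Traf3 (chr12:111166120-111166419, plus) is shown for its 2 matches, in capitals, of which the κB match ends at the base before the start and GAGGAA lies from base 10 to base 15 after it. The promoter of Traf1 (chr2:34961723-34962022, minus) is shown beside it because Traf1 had, of the 9 tested members, the largest log2 fold changes against WT in both mutants, below, and no match. Here too a match is a string of letters and not a measured site. Sequence outside these 300 bases was not searched for either string, so the absence of a match holds for them alone.

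Traf3: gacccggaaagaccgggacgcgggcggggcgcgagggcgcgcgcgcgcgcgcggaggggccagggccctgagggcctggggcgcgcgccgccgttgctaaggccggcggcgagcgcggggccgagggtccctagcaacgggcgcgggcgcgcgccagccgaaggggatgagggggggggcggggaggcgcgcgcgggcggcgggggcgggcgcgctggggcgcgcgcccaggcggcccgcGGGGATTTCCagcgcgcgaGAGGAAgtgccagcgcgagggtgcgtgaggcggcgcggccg
Traf1: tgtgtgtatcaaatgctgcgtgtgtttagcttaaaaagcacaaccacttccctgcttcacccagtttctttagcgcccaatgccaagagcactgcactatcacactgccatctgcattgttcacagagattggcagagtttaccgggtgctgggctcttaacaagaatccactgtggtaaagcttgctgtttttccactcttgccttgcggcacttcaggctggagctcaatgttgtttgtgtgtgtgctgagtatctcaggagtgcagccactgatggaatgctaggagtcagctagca

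Levels are RPKM as deposited (reads per kilobase of gene, scaled to the depth of the library), and the depth recovered from the values was 31.4 to 52.5 M reads per library. Sfpi1, the table's name for the gene of PU.1, had 23.7 ± 2.04 RPKM in PU.1 KI (SD, n = 5), 16.7 ± 1.11 RPKM in miR-155 KO (n = 5) and 12.0 ± 1.54 RPKM in WT (n = 4), and the same n hold below. Of the defining genes of other cell types, Cd3e, Cd3d and Cd3g of T cells were at most 0.0957 RPKM in any library, Csf1r, the C1q genes and Itgax of macrophages and dendritic cells at most 0.166, Ncr1 of NK cells at most 0.0130, and S100a8 and S100a9 of neutrophils at 0. Below the filter, 3 markers named after their values were seen were higher in miR-155 KO than in WT without overlap: Emr1 of macrophages averaged 0.253 RPKM in PU.1 KI, 0.738 RPKM in miR-155 KO and 0.20 RPKM in WT, Itgam 0.126 RPKM in PU.1 KI, 0.331 RPKM in miR-155 KO and 0.0499 RPKM in WT, and Cd8a of T cells 0.0636 RPKM in PU.1 KI, 0.645 RPKM in miR-155 KO and 0.0307 RPKM in WT. Among 10 T cell markers only Thy1 and Lck passed the expression filter, and the list summed to 41.9–50.2 RPKM in PU.1 KI, 74.9–83.1 RPKM in miR-155 KO and 51.9–55.4 RPKM in WT. The higher sum in miR-155 KO was that of Thy1 (70.6 RPKM in miR-155 KO and 44.9 RPKM in WT), while Lck fell there (5.33 RPKM in miR-155 KO and 7.64 RPKM in WT, limma adjusted p = 2.50e-05). Of 14 macrophage and dendritic cell markers 3 passed (Cd68, Flt3 and Zbtb46), and the sums were 36.0–44.3 RPKM in PU.1 KI, 30.3–36.5 RPKM in miR-155 KO and 22.4–27.8 RPKM in WT. Flt3 and Cd68 rose in PU.1 KI, and in miR-155 KO Flt3 and Zbtb46 rose and Cd68 fell (5.08 RPKM in miR-155 KO and 6.80 RPKM in WT, limma adjusted p = 1.37e-05). Of 6 NK cell markers 0 passed, with sums of 0.319–0.521 RPKM in PU.1 KI, 0.317–0.644 RPKM in miR-155 KO and 0.534–0.740 RPKM in WT. Prf1 on that list, named after its values were seen, averaged 0.249 RPKM in PU.1 KI and 0.517 RPKM in WT, without overlap. Markers of B cells, of which 7 of 8 passed, summed to 1564–1821 RPKM in PU.1 KI, 1375–1493 RPKM in miR-155 KO and 1522–1755 RPKM in WT. What part these marker differences have in the results was not tested, and in bulk RNA fewer cells of a type and less RNA per cell cannot be told apart. The library WT 1 was the lowest of its group in 8 of the 9 expressed members, and PU.1 KI 1 in 8, while PU.1 KI 4 was the highest in 7 and miR-155 KO 5 in 6.

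BAFF-R and TACI were the most abundant of the 10 transcripts per kilobase, and their order depended on genotype. Tnfrsf13c stood above Tnfrsf13b in every PU.1 KI and WT library, and Tnfrsf13b above Tnfrsf13c in every miR-155 KO library. Traf1, Fas and Cd40 followed in that order in all 3 genotypes, then Traf2 and Traf6. In PU.1 KI and in WT the lowest expressed members were Tnfrsf1b and then Traf3, whose ranges overlap in each, while in miR-155 KO Traf3 lay above Tnfrsf1b without overlap. In miR-155 KO the neighbours Cd40 and Traf2 overlapped, as did Traf6 and Traf3. Tnfrsf17 was last everywhere.

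**Figure D1:**
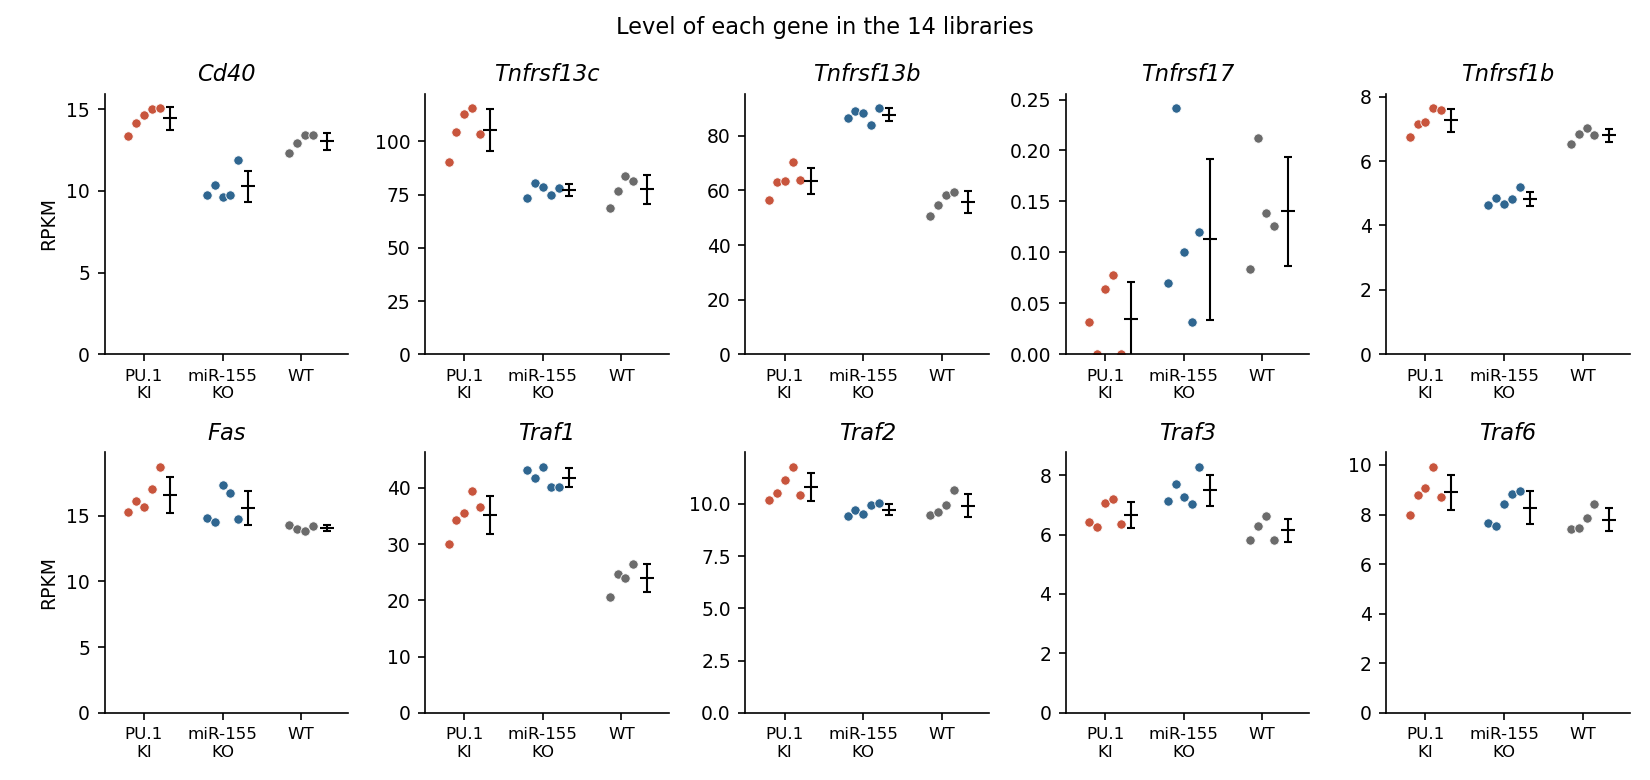
RPKM of each of the 10 genes (vertical axes, a separate linear scale from 0 in each panel) in PU.1 KI, miR-155 KO and WT libraries, with a dot per library and the mean ± SD as a bar. Tnfrsf13b is highest in miR-155 KO at 84.0 to 90.1 RPKM, Tnfrsf13c is highest in PU.1 KI at 90.3 to 115.6 RPKM, and Cd40 and Tnfrsf1b are lowest in miR-155 KO.

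Changes were tested with limma on log2(RPKM + 0.5) over all 14 libraries, with p-values adjusted by the Benjamini-Hochberg method over 9607 genes, and a gene was called where the adjusted p was under 0.05. A log2 fold change is given ± SE on that scale, where the added 0.5 shrinks differences between low values. The receptors for BAFF and APRIL come first. BAFF-R RNA rose in PU.1 KI and TACI RNA rose in both mutants, more in miR-155 KO.

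Tnfrsf13c, which encodes BAFF-R (ENSMUSG00000068105, chr15:82052174-82054790, minus strand, NCBIM37), had 90.3, 104.3, 112.9, 115.6 and 103.6 RPKM in the PU.1 KI libraries 1 to 5. It had 73.4, 80.7, 78.7, 74.7 and 78.2 RPKM in miR-155 KO and 68.6, 76.6, 83.9 and 81.3 RPKM in WT. Every PU.1 KI library was above every library of the other genotypes, and the miR-155 KO values lay within the WT range. The log2 fold change of PU.1 KI over WT was 0.44 ± 0.07, a 1.35-fold level (limma adjusted p = 0.000149). The difference of miR-155 KO from WT was -0.00 ± 0.07 (limma adjusted p = 0.963). With quantile normalization that difference was 0.11 and passed (limma adjusted p = 0.0339). Between the mutants it was lower in miR-155 KO, by a log2 fold change of -0.44 ± 0.07 (limma adjusted p = 1.69e-05).

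Tnfrsf13b, which encodes TACI (ENSMUSG00000010142, chr11:60940257-60962874, plus strand, NCBIM37), is 1 of the 3 members with a seed match in the 3′ UTR shown above. The 5 PU.1 KI libraries had 56.6, 63.1, 63.4, 70.2 and 63.7 RPKM, the 5 miR-155 KO libraries 86.4, 89.0, 88.5, 84.0 and 90.1 RPKM, and the WT libraries 50.5, 54.7, 58.4 and 59.4 RPKM. The miR-155 KO libraries formed a separate, narrow group above all the others, whereas the lowest PU.1 KI library lay within the WT range. The level in miR-155 KO was 1.57-fold that in WT (log2 fold change 0.65 ± 0.06, limma adjusted p = 4.51e-08) and 1.38-fold that in PU.1 KI (0.47 ± 0.06, limma adjusted p = 1.92e-06). The rise in PU.1 KI was 0.18 ± 0.06 (limma adjusted p = 0.0362). That call ended in 6 of the 14 fits that left out 1 library, for example without WT 1 (0.14, limma adjusted p = 0.147) or PU.1 KI 4 (0.15, limma adjusted p = 0.0937), and in a fit of the PU.1 KI and WT libraries alone (limma adjusted p = 0.0622).

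Tnfrsf17, which encodes BCMA (ENSMUSG00000022496, chr16:11313905-11320167, plus strand, NCBIM37), was near 0 and did not pass the filter of 1 RPKM in at least 4 libraries, so it was not tested. It had 0.0312, 0, 0.0643, 0.0780 and 0 RPKM in PU.1 KI, 0.0702, 0.241, 0.10, 0.0317 and 0.120 RPKM in miR-155 KO, and 0.0834, 0.213, 0.139 and 0.126 RPKM in WT. With the recovered depth and a transcript of 815 nt these values come to 6 reads over the PU.1 KI libraries, 22 over the miR-155 KO libraries and 18 over the WT libraries, each library within 0.02 reads of a whole number. In the libraries at 0, PU.1 KI 2 and 5, a count of 0 allows up to 0.117 and 0.0979 RPKM (3 reads, counting error only). Plasmablast markers, of which 7 of 8 passed the filter, summed to 243–365 RPKM in PU.1 KI, 287–427 RPKM in miR-155 KO and 436–520 RPKM in WT. Most of the sum came from Igj and Xbp1, which fell in both mutants together with Eaf2. Irf4 and Cd93, on the same list, rose in both: Irf4 averaged 49.5 RPKM in PU.1 KI, 60.1 RPKM in miR-155 KO and 37.9 RPKM in WT, and Cd93 averaged 13.3 RPKM in PU.1 KI, 15.9 RPKM in miR-155 KO and 10.6 RPKM in WT. Of the 7 tested markers, 3 were called lower and 2 higher in PU.1 KI against WT, beside 4.02% and 23.7% of all genes. In miR-155 KO against WT 4 were lower and 2 higher, beside 35.3% and 27.2%. Prdm1 averaged 4.62 RPKM in PU.1 KI and 5.86 RPKM in WT, without overlap, and was not called (limma adjusted p = 0.0539). Tnfrsf17 is itself on that list of 8, and the part of these markers in its values was not tested.

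CD40 and TNFR2 RNA fell in miR-155 KO and in neither case was a change called in PU.1 KI. Cd40 (ENSMUSG00000017652, chr2:164881127-164898448, plus strand, NCBIM37) had 13.3, 14.1, 14.7, 15.0 and 15.0 RPKM in PU.1 KI, 9.76, 10.3, 9.64, 9.75 and 11.9 RPKM in miR-155 KO, and 12.3, 12.9, 13.4 and 13.4 RPKM in WT. All miR-155 KO libraries lay below all others, with miR-155 KO 5 nearest to WT, and the PU.1 KI and WT ranges overlapped. The level in miR-155 KO was 0.794 of that in WT (log2 fold change -0.33 ± 0.06, limma adjusted p = 0.000130) and 0.720 of that in PU.1 KI (-0.47 ± 0.06, limma adjusted p = 1.26e-06). The difference of PU.1 KI from WT was 0.14 ± 0.06 (limma adjusted p = 0.0976), and it passed without PU.1 KI 1 (0.17, limma adjusted p = 0.0471) or without miR-155 KO 5, which enters that fit only through the shared spread (limma adjusted p = 0.0420).

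Tnfrsf1b (ENSMUSG00000028599, chr4:144803366-144836773, minus strand, NCBIM37) encodes TNFR2, the TNF receptor that recruits TRAF2 and has no death domain. Its level was 6.75, 7.14, 7.21, 7.64 and 7.59 RPKM in PU.1 KI, 4.63, 4.86, 4.66, 4.82 and 5.19 RPKM in miR-155 KO, and 6.54, 6.86, 7.01 and 6.80 RPKM in WT. The miR-155 KO libraries were again a separate low group. The fall in miR-155 KO was -0.45 ± 0.05 against WT (limma adjusted p = 4.36e-07), a level 0.730 of that in WT, and -0.54 ± 0.05 against PU.1 KI (limma adjusted p = 2.26e-08). The difference of PU.1 KI from WT was 0.09 ± 0.05 (limma adjusted p = 0.230).

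Fas (ENSMUSG00000024778, chr19:34365149-34402260, plus strand, NCBIM37) encodes the death receptor that limits activated B cells. It had 15.3, 16.1, 15.7, 17.0 and 18.7 RPKM in PU.1 KI, 14.8, 14.5, 17.3, 16.7 and 14.7 RPKM in miR-155 KO, and 14.3, 13.99, 13.8 and 14.2 RPKM in WT. All libraries of both mutants were above all WT libraries, which spanned less than 1 RPKM, and the mutants overlapped each other. The rise in PU.1 KI was 0.22 ± 0.07 (limma adjusted p = 0.0151), and it was not called with median-of-ratios scaling (0.14, limma adjusted p = 0.111). For miR-155 KO the reverse held: the difference from WT of 0.14 ± 0.07 did not pass as deposited (limma adjusted p = 0.0659) and did with median-of-ratios scaling (0.19, limma adjusted p = 0.0132). With the deposited scaling it also passed without PU.1 KI 5, miR-155 KO 2 or miR-155 KO 5 (0.14 to 0.17, limma adjusted p = 0.0427 to 0.0489). The mutants differed by -0.08 ± 0.06 (limma adjusted p = 0.256), with the opposite sign under that scaling (0.06, limma adjusted p = 0.425).

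Among the 4 TRAFs of the 10 genes the largest differences were those of Traf1, which rose in both mutants. Traf1 (ENSMUSG00000026875, chr2:34797270-34817292, minus strand, NCBIM37) encodes the TRAF without a ubiquitin ligase domain, which pairs with TRAF2. Its level was 30.0, 34.3, 35.6, 39.4 and 36.6 RPKM in PU.1 KI, 43.1, 41.7, 43.7, 40.1 and 40.1 RPKM in miR-155 KO, and 20.6, 24.7, 24.0 and 26.5 RPKM in WT. The 3 genotypes did not overlap at all, and WT was lowest and miR-155 KO highest. The level was 1.46-fold that of WT in PU.1 KI (log2 fold change 0.55 ± 0.08, limma adjusted p = 2.06e-05) and 1.73-fold that of WT in miR-155 KO (0.79 ± 0.08, limma adjusted p = 3.07e-08). Between the mutants it was higher in miR-155 KO, by 0.25 ± 0.07 (limma adjusted p = 0.00487).

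Traf3 (ENSMUSG00000021277, chr12:112404581-112505364, plus strand, NCBIM37), the brake on NIK and one of the members with a seed match, rose in miR-155 KO. It had 6.43, 6.25, 7.08, 7.21 and 6.35 RPKM in PU.1 KI, 7.15, 7.71, 7.26, 7.05 and 8.28 RPKM in miR-155 KO, and 5.82, 6.29, 6.63 and 5.82 RPKM in WT. Every miR-155 KO library was above every WT library, while PU.1 KI overlapped with both. The log2 fold change was 0.27 ± 0.06 in miR-155 KO against WT (limma adjusted p = 0.00107) and 0.11 ± 0.06 in PU.1 KI against WT (limma adjusted p = 0.209). Between the mutants it was 0.16 ± 0.06 (limma adjusted p = 0.0252), a call that ended without any 1 of PU.1 KI 2, PU.1 KI 5, miR-155 KO 2 or miR-155 KO 5 (0.12 to 0.15, limma adjusted p = 0.0543 to 0.0677).

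Traf2 and Traf6 were not called against WT in either mutant. Traf2 (ENSMUSG00000026942, chr2:25373502-25402460, minus strand, NCBIM37), the ubiquitin ligase scaffold used by most receptors of the family, had 10.8 ± 0.65 RPKM in PU.1 KI, 9.73 ± 0.27 RPKM in miR-155 KO and 9.92 ± 0.53 RPKM in WT. The libraries ranged over 10.2–11.8 RPKM in PU.1 KI, 9.41–10.03 RPKM in miR-155 KO and 9.45–10.7 RPKM in WT, so that the mutants did not overlap with each other and both overlapped with WT. The mutants differed by -0.14 ± 0.05 (limma adjusted p = 0.0208), but the median over all tested genes in that comparison was -0.13, and relative to it Traf2 differed by -0.01. The call ended with median-of-ratios scaling (-0.01, limma adjusted p = 0.868), and also without PU.1 KI 3 (limma adjusted p = 0.0521) or PU.1 KI 4 (limma adjusted p = 0.0609). Traf6 (ENSMUSG00000027164, chr2:101518597-101541826, plus strand, NCBIM37), the third member with a seed match, had 8.89 ± 0.70 RPKM in PU.1 KI, 8.28 ± 0.65 RPKM in miR-155 KO and 7.79 ± 0.47 RPKM in WT. The library ranges were 8.0–9.93 RPKM in PU.1 KI, 7.52–8.94 RPKM in miR-155 KO and 7.42–8.43 RPKM in WT and overlapped among all 3. The log2 fold change was 0.18 ± 0.07 in PU.1 KI (limma adjusted p = 0.0524) and 0.08 ± 0.07 in miR-155 KO (limma adjusted p = 0.301). The PU.1 KI difference passed with a filter of 5 RPKM (limma adjusted p = 0.0491), with the replicate number as a block (limma adjusted p = 0.0159) and without any 1 of WT 4, PU.1 KI 1, miR-155 KO 2 or miR-155 KO 5 (limma adjusted p = 0.0197 to 0.0496). With median-of-ratios scaling the miR-155 KO difference passed (0.13, limma adjusted p = 0.0131).

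Counted together, 4 of the 9 tested members were called higher and 0 lower in PU.1 KI against WT. Over all 9607 genes 23.7% were called higher and 4.02% lower. In 3 of the 9 the libraries of the groups did not overlap, against 22.1% of all genes. In miR-155 KO against WT 3 members were higher and 2 lower, where 27.2% of all genes were higher and 35.3% lower. The groups did not overlap in 6 of 9 members, against 48.4% of all genes. In miR-155 KO against PU.1 KI 3 members were higher and 4 lower, where 17.9% of all genes were higher and 46.4% lower, and 6 of 9 did not overlap, against 43.2%. The median log2 fold change of the 9 was 0.18, 0.08 and -0.10 in these comparisons, beside 0.08, -0.05 and -0.13 over all genes. The first and second comparisons share the 4 WT libraries, so a low or high WT library moves both the same way.

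**Figure D2:**
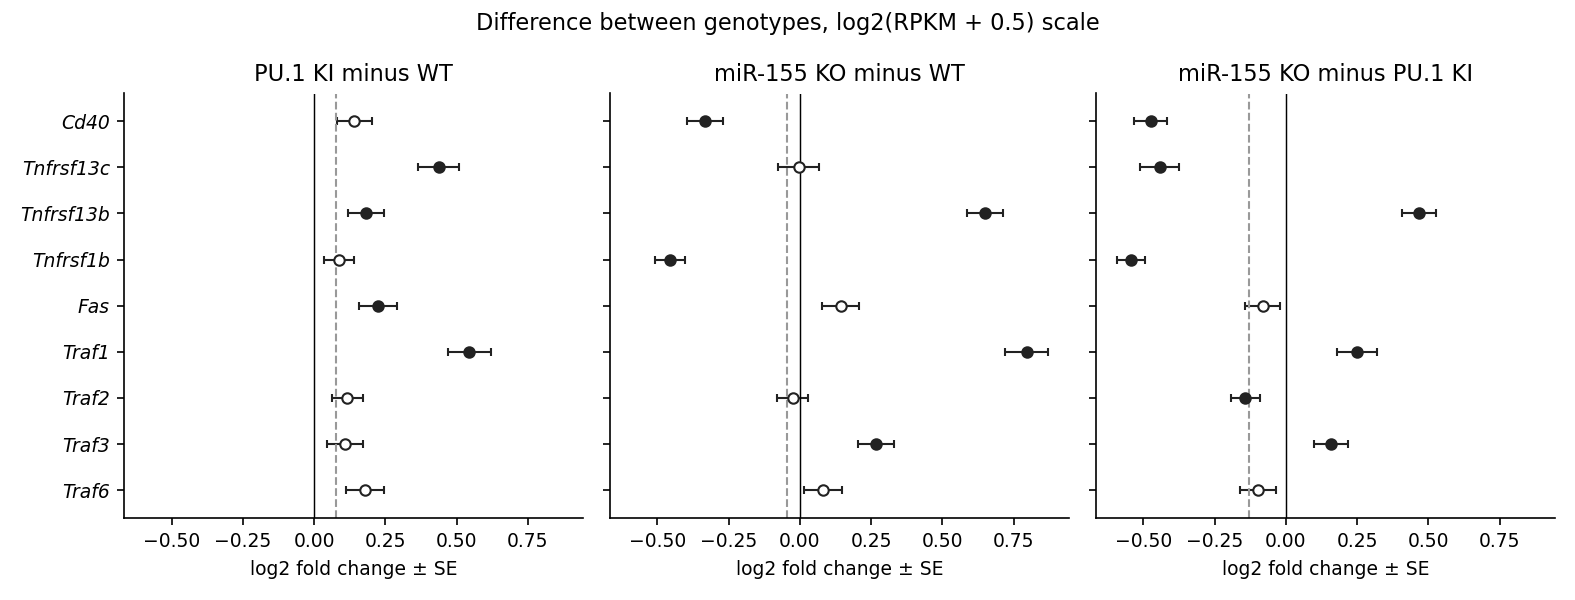
Log2 fold change ± SE of each tested member on the log2(RPKM + 0.5) scale (horizontal axes) in the comparisons of PU.1 KI with WT, miR-155 KO with WT and miR-155 KO with PU.1 KI, where filled points passed the limma threshold, open points did not, and the dashed line is the median of all tested genes. Traf1 lies to the right in both comparisons with WT, and Cd40 and Tnfrsf1b lie to the left wherever miR-155 KO is compared.

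The scaling of the libraries mattered because all-gene medians were not at 0. Size factors by the median of ratios were 0.985–1.13 in PU.1 KI, 0.921–1.02 in miR-155 KO and 0.938–1.03 in WT, and rescaling by them made the calls over all genes nearly even in number in both directions: 17.5% higher and 15.7% lower in PU.1 KI against WT, 34.4% and 33.6% in miR-155 KO against WT, and 31.8% and 30.7% between the mutants. Of the members, Tnfrsf13c, Tnfrsf13b and Traf1 in PU.1 KI, Cd40, Tnfrsf1b, Tnfrsf13b, Traf1 and Traf3 in miR-155 KO against WT, and these same genes with Tnfrsf13c between the mutants kept their direction and their calls as deposited, with median-of-ratios scaling and with quantile normalization. Member counts with median-of-ratios scaling were 3 higher and 0 lower in PU.1 KI, 5 and 2 in miR-155 KO against WT, and 3 and 3 between the mutants. Relative to the all-gene median, the difference between the mutants was 0.60 for Tnfrsf13b, 0.38 for Traf1, 0.29 for Traf3, -0.31 for Tnfrsf13c, -0.34 for Cd40 and -0.41 for Tnfrsf1b.

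**Figure D3:**
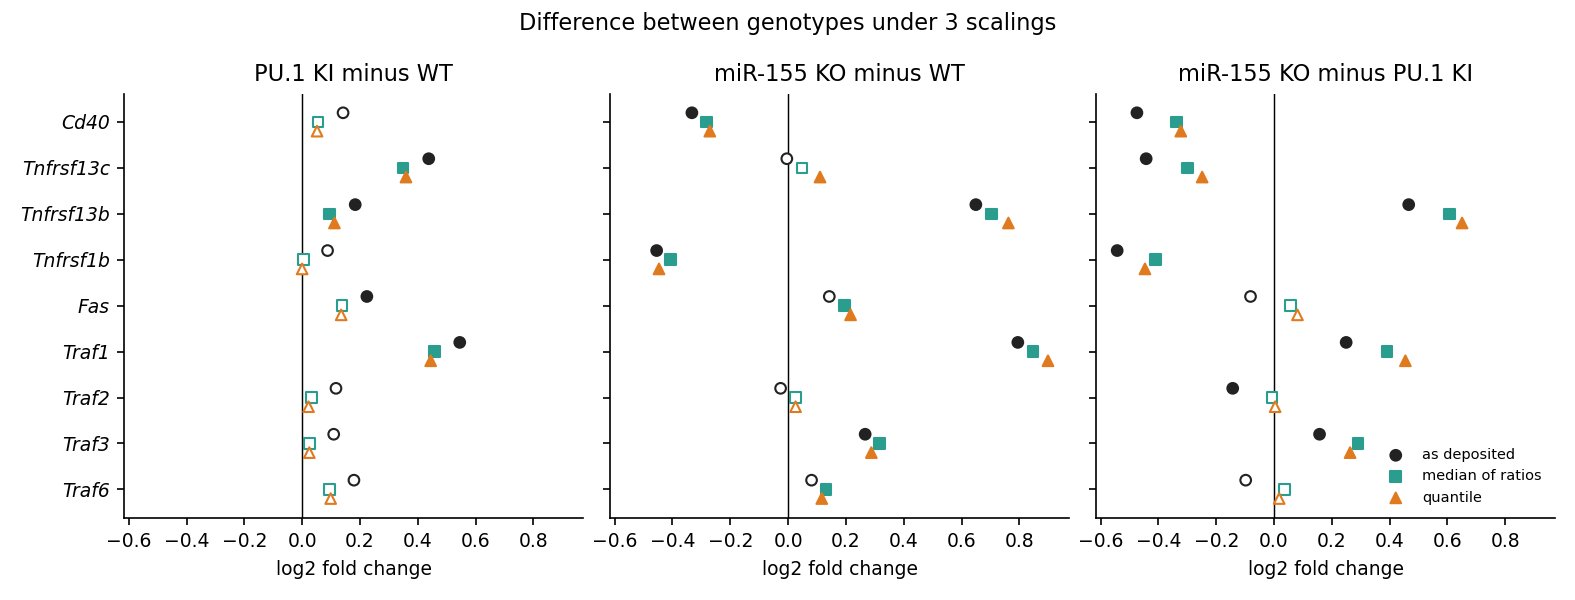
Log2 fold change of each tested member (horizontal axes) in the 3 comparisons, computed from the RPKM as deposited (circles), after median-of-ratios scaling (squares) and after quantile normalization (triangles), with filled symbols for calls. The calls for Cd40, Tnfrsf1b, Tnfrsf13b, Traf1 and Traf3 in miR-155 KO against WT hold under all 3. In that comparison Fas and Traf6 are called only after rescaling, and Tnfrsf13c only with quantile normalization.

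Ratios of 2 members within a library do not depend on its scaling. They were chosen after the levels were seen and are given as a description. Tnfrsf13b over Tnfrsf13c, TACI over BAFF-R, was 0.562 to 0.626 in PU.1 KI, 1.10 to 1.18 in miR-155 KO and 0.697 to 0.736 in WT. The genotypes did not overlap, and the mutants lay on opposite sides of WT, PU.1 KI below it and miR-155 KO above it. Traf1 over Traf2 was 2.96 to 3.52 in PU.1 KI, 4.00 to 4.59 in miR-155 KO and 2.18 to 2.57 in WT, again with no overlap but with both mutants above WT. Traf1 over Traf3 was 4.68 to 5.76 in PU.1 KI, 4.84 to 6.04 in miR-155 KO and 3.54 to 4.55 in WT, so the mutants overlapped here. Tnfrsf1b over Cd40 was 0.492 to 0.509 in PU.1 KI, 0.438 to 0.494 in miR-155 KO and 0.506 to 0.531 in WT, so the miR-155 KO libraries lay below WT and overlapped with PU.1 KI in this ratio of the 2 genes that fell there. A further ratio, Traf2 over Traf6, was 1.19 to 1.27 in PU.1 KI, 1.12 to 1.29 in miR-155 KO and 1.26 to 1.29 in WT. The genotypes all overlapped in it, and it is not plotted.

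**Figure D4:**
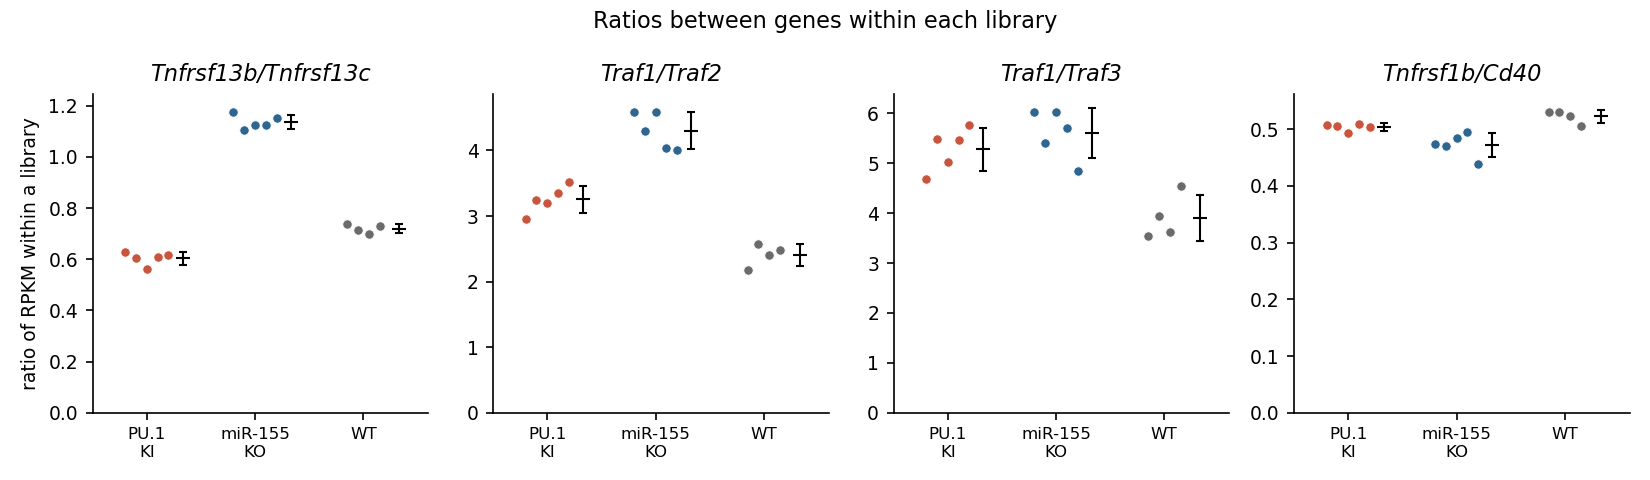
Ratio of the RPKM of 2 members in the same library (vertical axes, linear), with a dot per library and the mean ± SD as a bar, in PU.1 KI, miR-155 KO and WT. The ratio of Tnfrsf13b to Tnfrsf13c is above 1 in every miR-155 KO library and below 1 in every other library.

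The rest of the pathway was followed in 4 lists of 86 genes: ligands of the family, other receptors, other TRAFs and adaptors, and kinases and NF-κB proteins. Of these, 64 passed the expression filter. In PU.1 KI against WT 28 were called higher and 4 lower, in miR-155 KO against WT 26 and 14, and in miR-155 KO against PU.1 KI 14 and 25. The shares called higher and lower over all genes in these comparisons were 23.7% and 4.02%, 27.2% and 35.3%, and 17.9% and 46.4%, and the list counts below are to be read beside them. With median-of-ratios scaling these counts were 20 and 12, 29 and 15, and 25 and 14. All-gene shares with that scaling were 17.5% and 15.7%, 34.4% and 33.6%, and 31.8% and 30.7%. The median log2 fold change of the 64 was 0.15, 0.03 and -0.09 in these comparisons, beside the all-gene medians of 0.08, -0.05 and -0.13.

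The ligands of CD40, BAFF-R, TACI, BCMA and Fas were almost silent: Cd40lg, Tnfsf13b (BAFF), Tnfsf13 (APRIL) and Fasl did not exceed 0.0650 RPKM in any library. Of 17 ligand genes 7 passed the filter. The cytokine genes Tnf, Lta and Ltb, which encode TNF, a ligand of TNFR2, and the lymphotoxins, were expressed and fell in both mutants and further in miR-155 KO, Lta and Ltb being named here after their values were seen. Tnf had 4.41, 5.00, 4.84, 4.47 and 4.28 RPKM in PU.1 KI, 1.12, 1.08, 1.13, 1.31 and 2.22 RPKM in miR-155 KO and 6.60, 8.12, 6.28 and 7.55 RPKM in WT, with no overlap between any of the genotypes. Its log2 fold change was -0.58 ± 0.12 in PU.1 KI (limma adjusted p = 0.00144) and -2.05 ± 0.12 in miR-155 KO (limma adjusted p = 3.44e-11), the furthest from 0 of the pathway genes in miR-155 KO. Lta averaged 5.05 RPKM in PU.1 KI, 2.56 RPKM in miR-155 KO and 6.76 RPKM in WT. Ltb averaged 24.0 RPKM in PU.1 KI, 15.3 RPKM in miR-155 KO and 29.1 RPKM in WT. The PU.1 KI call of Ltb (-0.26, limma adjusted p = 0.0337) ended in 6 of the 14 fits that left out 1 library, for example without WT 3 (-0.18, limma adjusted p = 0.138), and without a filter on low values (limma adjusted p = 0.0776).

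The 4 other ligand genes past the filter, which encode ligands of TNF receptor family members found on T cells, were higher in miR-155 KO. Tnfsf9, the ligand of 4-1BB, had 3.35, 3.9, 3.81, 4.55 and 4.15 RPKM in PU.1 KI, 7.05, 6.86, 7.68, 6.24 and 7.42 RPKM in miR-155 KO and 1.51, 2.31, 2.14 and 1.95 RPKM in WT. It rose by log2 fold changes of 0.85 ± 0.09 in PU.1 KI (limma adjusted p = 9.23e-07) and 1.62 ± 0.09 in miR-155 KO (limma adjusted p = 1.47e-11). Cd70, the ligand of CD27, rose in both, with means of 1.03 RPKM in PU.1 KI, 1.22 in miR-155 KO and 0.356 in WT. Tnfsf4 and Tnfsf8, the ligands of OX40 and CD30, rose in miR-155 KO, where they averaged 1.75 and 3.04 RPKM, against 0.471 and 0.985 RPKM in WT. In PU.1 KI they averaged 0.315 and 0.947 RPKM and were not called. Cd70 passed the filter through the mutants and Tnfsf4 through miR-155 KO alone, since no WT library reached 1 RPKM for either, so their inclusion already required a difference.

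Of 20 other receptors 8 passed the filter, with 4 called higher and 1 lower in PU.1 KI and 3 higher and 1 lower in miR-155 KO, both against WT. Tnfrsf14, which encodes HVEM, and Relt rose in both mutants, by 0.60 and 0.52 in PU.1 KI and by 0.51 and 0.40 in miR-155 KO on the log2 scale. Tnfrsf10b, the death receptor for TRAIL, rose by 0.26 in PU.1 KI and 0.69 in miR-155 KO, and Tnfrsf18, which encodes GITR, by 0.34 in PU.1 KI. The lower gene was Tnfrsf26 in both, named after its value was seen, with 4.68 RPKM in each mutant and 5.93 RPKM in WT. Between the mutants 1 was called higher, Tnfrsf10b, and 2 lower, Tnfrsf18 and Tnfrsf8 at -0.18 and -0.14. Neither of these lower calls held with median-of-ratios scaling.

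All 23 other TRAFs and adaptors passed the filter, with 12 higher and 0 lower in PU.1 KI, 6 higher and 8 lower in miR-155 KO against WT, and 3 higher and 15 lower between the mutants. In miR-155 KO against WT this is 26.1% higher and 34.8% lower, near the 27.2% and 35.3% over all genes. Traf5, a TRAF behind CD40 and OX40, moved in opposite directions in the mutants: it had 6.93, 7.41, 7.68, 7.55 and 7.46 RPKM in PU.1 KI, 3.55, 3.39, 3.25, 3.36 and 3.52 RPKM in miR-155 KO and 4.70, 5.73, 5.72 and 5.71 RPKM in WT. The 3 genotypes did not overlap. The log2 fold change was 0.41 ± 0.06 in PU.1 KI against WT (limma adjusted p = 3.73e-05), -0.60 ± 0.06 in miR-155 KO against WT (limma adjusted p = 5.15e-08) and -1.01 ± 0.06 in miR-155 KO against PU.1 KI (limma adjusted p = 1.77e-11). Trafd1, a negative regulator of innate signalling, had the same signs, with 0.36 in PU.1 KI against WT, -0.21 in miR-155 KO against WT, where the libraries overlapped, and -0.57 in miR-155 KO against PU.1 KI. Cflar, which encodes the caspase-8 inhibitor c-FLIP, and Tnfaip3, which encodes the ubiquitin editor A20, rose in both mutants, by 0.60 and 0.50 in PU.1 KI and by 0.65 and 0.34 in miR-155 KO. Birc2 and Birc3 encode the cIAP ligases that TRAF2 recruits. Birc2 rose by 0.54 in miR-155 KO, and by 0.27 in PU.1 KI, a call that ended with median-of-ratios scaling (0.18, limma adjusted p = 0.135). Birc3 averaged 20.9 RPKM in PU.1 KI, 28.6 RPKM in miR-155 KO and 20.5 RPKM in WT. It rose in miR-155 KO, by 0.47 against WT and 0.44 against PU.1 KI, and was not called in PU.1 KI against WT.

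**Figure D5:**
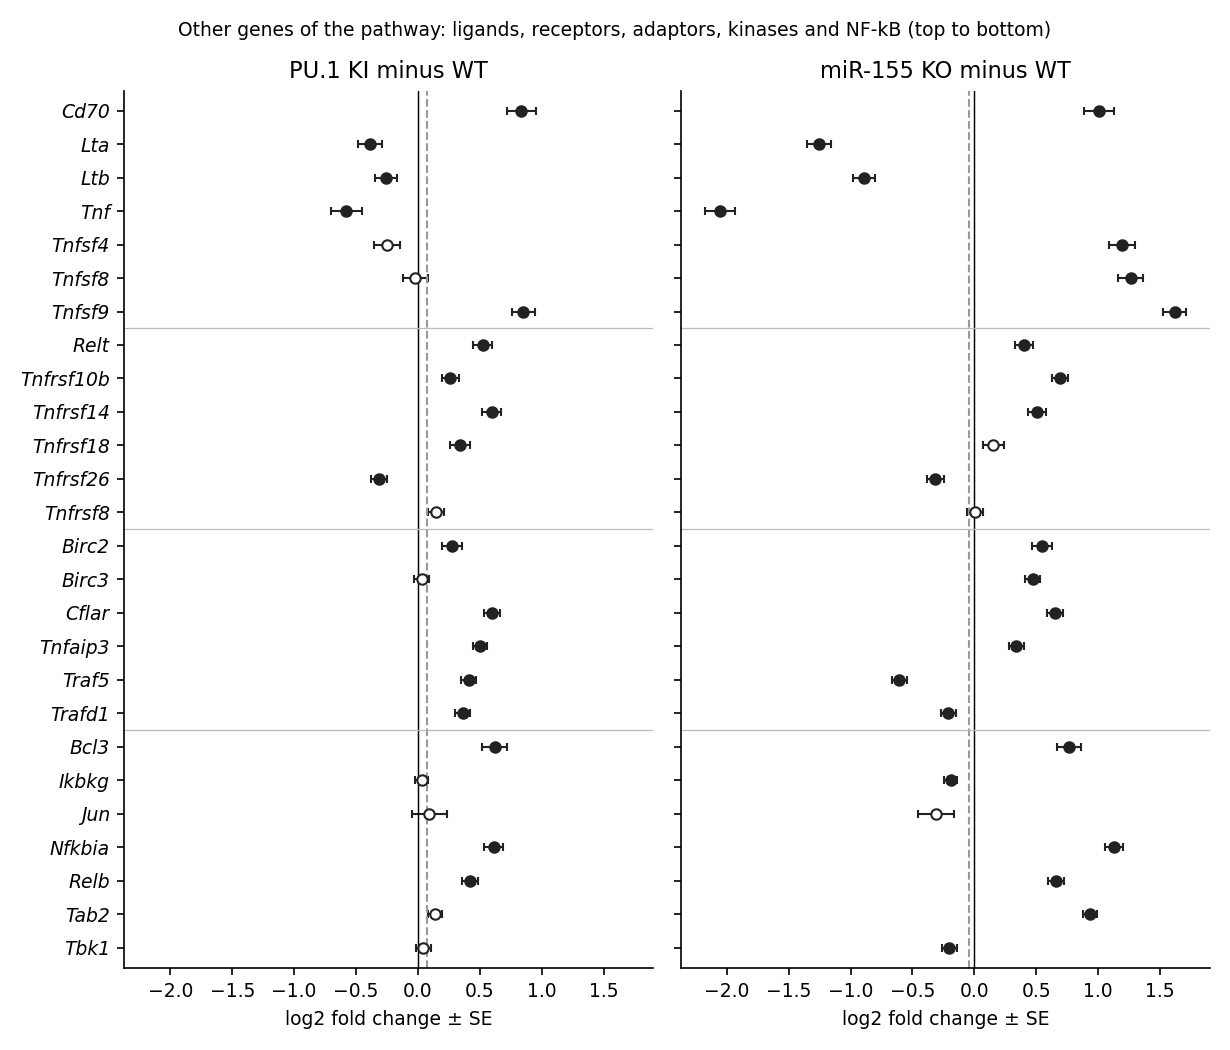
Log2 fold change ± SE (horizontal axes, log2(RPKM + 0.5) scale) of the other pathway genes named in the text, in PU.1 KI minus WT and miR-155 KO minus WT, grouped by grey lines into ligands, receptors, adaptors, and kinases and NF-κB, where filled points passed the limma threshold and the dashed line is the median of all tested genes. Tnf, Lta and Ltb lie to the left in both, and Traf5 lies to the right in PU.1 KI and to the left in miR-155 KO.

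All 26 kinases and NF-κB genes passed the filter, with 10 higher and 0 lower in PU.1 KI, 13 higher and 2 lower in miR-155 KO against WT, and 7 higher and 5 lower between the mutants, beside 23.7% higher and 4.02% lower, 27.2% and 35.3%, and 17.9% and 46.4% over all genes. Nfkbia, which encodes the inhibitor IκBα and is itself induced by NF-κB, had 45.2 to 56.6 RPKM in PU.1 KI, 72.1 to 75.6 RPKM in miR-155 KO and 28.0 to 37.6 RPKM in WT, and the groups did not overlap. It rose by 0.61 ± 0.08 in PU.1 KI (limma adjusted p = 5.33e-06) and 1.13 ± 0.08 in miR-155 KO (limma adjusted p = 2.01e-10). Bcl3, an NF-κB cofactor, rose by 0.62 in PU.1 KI and 0.76 in miR-155 KO. Relb, the partner of p52 in the alternative pathway, rose by 0.42 in PU.1 KI and 0.66 in miR-155 KO. The lower genes in miR-155 KO were Ikbkg (NEMO) at -0.19 and the kinase gene Tbk1 at -0.20, both named after their values were seen. Jun was called between the mutants alone, at -0.40 (limma adjusted p = 0.0137), and not with median-of-ratios or quantile scaling.

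Tab2, which encodes the adaptor that brings the kinase TAK1 to TRAF6, had 16.8, 17.7, 18.1, 18.6 and 18.8 RPKM in PU.1 KI, 30.2, 30.2, 33.8, 34.4 and 29.9 RPKM in miR-155 KO and 15.3, 16.1, 16.6 and 17.3 RPKM in WT. All miR-155 KO libraries lay far above the others, which overlapped. It rose in miR-155 KO by 0.93 and the difference of 0.14 in PU.1 KI was not called. Its 3′ UTR of 1782 nt holds the full match AGCATTAA at base 737, a string present in 3.311% of the 9393 genes with a 3′ UTR. This match is shown after its value was seen. Of the 64 tested pathway genes 62 had a 3′ UTR, and 12 of these held a match of some form, beside 13.63% of the 9393 genes. Of the 12, 6 were called higher, 2 lower and 4 not called in miR-155 KO against WT. In that comparison 40.6% of all 64 were called higher and 21.9% lower, and 27.2% and 35.3% of all genes. The full match was in 5: Tab2, Tnfrsf10b and Otud7b, which rose there, and Map3k14 and Rela, which were not called.

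Tab2 chr10:7906682-7906707 minus: aaggtagaaAGCATTAAtgaaatgaa

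Over the 14 libraries, the genes whose log2 values followed a member most closely were found by Pearson's r for the 3 members with the widest range of genotype means. Traf1 was followed by Grap (r = 0.991), Snx18 (0.987) and Relb (0.984), which all had their lowest mean in WT and highest in miR-155 KO. Tnfrsf13b was followed by Ctsd (r = 0.989), Slc7a7 (0.989) and Flot2 (0.987), and Ctsd averaged 33.5 RPKM in PU.1 KI, 44.0 RPKM in miR-155 KO and 29.4 RPKM in WT. Tnfrsf1b was followed by Ifi35 (r = 0.993), Mtf1 (0.990) and Gltpd1 (0.988), and Ifi35 averaged 43.0 RPKM in PU.1 KI, 23.2 RPKM in miR-155 KO and 38.4 RPKM in WT. These libraries fall into 3 genotypes and share their scaling, so r carries the order of the genotype means and is given as a description without a test.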

How the data were processed

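Polyadenylated RNA of stimulated splenic B cells was sequenced from Illumina TruSeq mRNA libraries, per the labels' protocols. The authors deposited 1 table of RPKM per gene and library; Trim Galore, TopHat and the build NCBIM37 are named, per the submitters' processing notes, without versions. Sources used here do not give the counter, annotation or strand setting. The table has 22295 rows for 22232 Ensembl IDs; the first row of each ID was kept, which dropped 63 rows and no member. All 14 columns were matched to samples by name, with 0 left over. Replicates are called biological in the design text, and which libraries shared a sequencing pool is not stated.

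Depth was estimated from the steps of the 250 lowest values of genes under 2500 bp: 67.2% to 72.8% of them lay within 0.01 reads of a whole number. At 1 RPKM a gene of 2 kb then has 62.9 to 104.9 reads. Tested genes can lie lower in a whole group, as Cd70 did in WT (0.244 to 0.537 RPKM). There, and in shorter genes, counting error is larger. No count model was run, since not nearly all values came out whole.

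Genes with at least 1 RPKM in at least 4 libraries (9607) were tested on log2(RPKM + 0.5) in R 4.3.3 by limma 3.58.1, with a mean per genotype over all 14 libraries, empirical Bayes moderation with trend, two-sided, and Benjamini-Hochberg adjustment. The script was tested on simulated data. Named genes are all members, Sfpi1, and up to 3 called genes per pathway list and comparison with the largest absolute log2 fold change; others are marked in the text. The members and lists were chosen with earlier results of these data known. Alternatives were other scalings, pseudocounts, filters and fits, and leaving out libraries. Sequences, levels and figures were handled in Python 3.11.15 (pandas 2.3.3, numpy 2.4.6, matplotlib 3.10.9).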

Additional observations from a re-analysis of the deposited data

Results flagged for a closer look

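Among 123 sets of libraries (members, named pathway genes and ratios of 2 members in each genotype), 6 had a library far from the rest of its group. None of the 6 was of a member or a ratio. The threshold was that of 1 in 20 for a single set. The sets share the same 14 libraries and are not independent, so the part of chance in this number was not tested. WT 1 was low for Relb (8.01 RPKM, the other WT libraries at 9.70 to 10.04) and for Traf5 (4.70 RPKM, the others at 5.71 to 5.73). The library miR-155 KO 5 was high for Tnf (2.22 RPKM, the others at 1.08 to 1.31), for Tnfsf4 (2.56 RPKM, the others at 1.42 to 1.71) and for Trafd1 (22.1 RPKM, the others at 19.4 to 20.0). PU.1 KI 4 was high for Tnfrsf8 (23.1 RPKM, the others at 19.4 to 20.4). For Relb, Traf5, Tnf, Tnfsf4 and Trafd1 the direction and the limma calls against WT were the same without WT 1 and miR-155 KO 5 together, libraries chosen for this after the data were seen.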

How the results depend on the processing

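Of the alternatives run on single genes, 2019 kept direction and side of the threshold, 51 lost a call, 15 gained one and 17 changed sign. Called pathway genes lower in PU.1 KI against WT numbered 12 with median-of-ratios scaling and 11 with quantile normalization, against 4 as deposited. The share lower over all genes also moved, to 15.7% and 16.1% from 4.02%. Members called higher in miR-155 KO against WT numbered 5 and 6 in the same order of settings, against 3. Over all genes 34.4% and 31.2% were higher there, against 27.2%. Pathway genes called higher between the mutants numbered 25 and 27, and 24 without a filter, against 14, and those called lower 14 and 13, against 25. All-gene shares between the mutants were 31.8% and 29.4% higher, and 17.1% of 16484 genes without a filter, against 17.9%. The shares lower were 30.7% and 33.4%, against 46.4%. Signs changed only in differences near 0 or in calls lost by scaling. In PU.1 KI against WT Tnfrsf1b was -1.00e-05 with quantile normalization. In miR-155 KO against WT Tnfrsf13c was 0.049 with median-of-ratios scaling, 0.11 with quantile normalization and from -0.062 to 0.034 over the fits that left out 1 library. Traf2 there was 0.025 with median-of-ratios scaling, 0.026 with quantile normalization and from -0.048 to 0.0074 over those fits. Between the mutants Fas was 0.057 with median-of-ratios scaling and 0.081 with quantile normalization, Traf6 was 0.037 and 0.018 in the same order of settings, and with quantile normalization Traf2 was 0.0038, Tnfrsf8 0.046 and Tnfaip3 0.032. The cause was not tested.

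Leaving out each library in turn gave 3 to 6 members higher and 0 lower in PU.1 KI against WT, 3 to 4 higher and 2 lower in miR-155 KO against WT, and 2 to 3 higher and 3 to 4 lower between the mutants. For the pathway genes the ranges were 21 to 32 higher and 3 to 5 lower, 25 to 27 and 13 to 19, and 13 to 16 and 21 to 29. Over all genes, 16.9% to 29.0% were higher and 2.93% to 5.04% lower in PU.1 KI against WT in those fits. The shares were 24.8% to 27.7% and 30.8% to 38.3% in miR-155 KO against WT. Between the mutants they were 16.0% to 18.7% and 41.2% to 49.9%.

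Deviations of libraries with the same number from their group means correlated at r of 0.04 to 0.36 between PU.1 KI and WT (positive in 4 of 4 pairs), -0.28 to 0.47 between miR-155 KO and WT and -0.39 to 0.22 between miR-155 KO and PU.1 KI. As 1 PU.1 KI and WT pair was under 0.1 and no label ties the numbers to a shared day or batch, they were not treated as pairs. With the replicate number as a block, members called higher and lower numbered 5 and 0, 3 and 2, and 3 and 4 in the 3 comparisons, and the added member was Traf6 in PU.1 KI (0.17, limma adjusted p = 0.0159). Pathway counts with the block were 31 and 6, 26 and 15, and 15 and 28. The all-gene shares with it were 24.8% and 5.38%, 27.4% and 38.3%, and 18.8% and 48.3%. Pool, culture day and genotype cannot be told apart, and values of transcripts near 0, such as Tnfrsf17, rest on a few reads.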
